A study of Homo sapiens with 13 samples.

Results

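TSPAN8 and 9 other tetraspanins (TSPAN1, TSPAN3, TSPAN4, TSPAN6, CD9, CD63, CD81, CD82 and CD151) were followed on 13 microarrays of human cells of non-small cell lung carcinoma (NSCLC). They were found as all probe sets whose platform annotation names one of these genes, which gave 13 of 22277 probe sets, or 10 of the 11963 genes that had a probe set of their own. No probe set named a member together with another gene. TSPAN8 heads the list because it was chosen from its measured signals in these arrays, so its differences are given as a description with no test. The other 9 were listed as members of its family.

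The tested cells were 3 bone-metastatic lines, called M1, M4 and M5, with 3 arrays each. Each line was a subpopulation of the control cells that was recovered from bone after the control cells had been injected into the heart of mice. The comparison group was the non-metastatic control cells, with 2 arrays of cells that carried a luciferase reporter and 2 arrays of cells without it. Every array held a pool of 3 groups of cells, the arrays of a group were labelled as biological replicates, and each line is a single selected population. The labels do not state the luciferase status of the lines, the name of the parental cells, or whether replicates came from separate cultures, so p-values measure the spread between these arrays only.

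Tetraspanins are small membrane proteins that cross the membrane 4 times and gather integrins, immunoglobulin-family proteins, proteases and one another into patches of the cell surface. CD9, CD63 and CD81 are widely used as markers of extracellular vesicles. CD151 binds laminin-receptor integrins tightly. CD82 is known as a suppressor of metastasis, and TSPAN8 is known from carcinomas of the gut and pancreas, where it is carried on vesicles. In rat and human carcinoma cells TSPAN8 has been found in complexes with CD9, EPCAM, claudins and integrins.

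Values are log2 signals, on which 1 unit is a doubling, and they compare a gene between arrays rather than one gene with another. The array medians lay between 5.61 and 5.69. The arrays fell into 4 groups by the signals of the 62 Affymetrix control probe sets, which carry no gene of these cells, and over all genes 13 of 13 arrays were most like an array of their own array group, against 4 of 13 for their own cells. Array group 1 held the first array of both kinds of control and M1 replicate 2. Array group 2 held the second array of both kinds of control and the first array of each line. Array group 3 held M1 replicate 3 and M4 replicates 2 and 3, and array group 4 held M5 replicates 2 and 3 alone. The labels record no batch, so these are called array groups here, and each difference was also fitted with the array group as a block, in which the M5 difference rests on M5 replicate 1. Of 6 epithelial markers, the keratins KRT7, KRT8, KRT18 and KRT19 lay above the array median on all 13 arrays, and EPCAM and CDH1 lay below the lower quartile of probe sets on all 13. Of the 5 lung lineage markers measured, SFTPC lay above the median on all 13 arrays and SCGB1A1 below the lower quartile on all 13. SFTPB lay above the median on 11 arrays, NKX2-1 on 1 and FOXA2 on 0. Of 8 markers of gut and pancreas epithelium, AGR2 and CDX1 lay above the median on all arrays, and CDX2 and CEACAM5 on 5 each. CDH17 and LGR5 lay below the lower quartile on all 13, LGALS4 on 12 and VIL1 on 9. Of the markers of blood (5), endothelium (3), osteoblasts (2) and osteoclasts (2), none lay above the median on all arrays, and of 5 fibroblast markers COL1A1 did, while COL1A2, DCN and PDGFRB were above it on none and LUM was below the lower quartile on all 13.

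TSPAN8 and CD9 were the 2 members that varied most over the arrays, and both genes lie on chromosome 12. A window of 300 bases around an annotated transcription start is shown for each, from RefSeq on GRCh38.p14, with every match to GGGCGG (the core of the motif of the Sp1 factor family, searched on both strands) in capitals. The TSPAN8 window is chr12:71157950-71158249 on the minus strand and the CD9 window is chr12:6200150-6200449 on the plus strand.

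TSPAN8: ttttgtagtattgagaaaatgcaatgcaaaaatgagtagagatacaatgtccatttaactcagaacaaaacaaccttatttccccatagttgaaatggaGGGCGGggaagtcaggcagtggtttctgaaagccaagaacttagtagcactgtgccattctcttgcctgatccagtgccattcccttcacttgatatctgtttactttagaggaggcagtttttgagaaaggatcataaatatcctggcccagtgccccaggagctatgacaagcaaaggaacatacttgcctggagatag

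CD9: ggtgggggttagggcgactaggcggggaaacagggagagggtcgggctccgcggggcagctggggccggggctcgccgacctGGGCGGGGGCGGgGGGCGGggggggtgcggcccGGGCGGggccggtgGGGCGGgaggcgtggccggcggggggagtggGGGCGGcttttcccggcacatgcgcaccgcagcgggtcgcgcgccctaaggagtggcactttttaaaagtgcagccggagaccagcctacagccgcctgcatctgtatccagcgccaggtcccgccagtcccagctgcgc

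The TSPAN8 window held 1 match and had a GC content of 42.3%, while the CD9 window held 6 and had a GC content of 75.7%. Of 35116 such windows in the table, 45% held GGGCGG, and the median GC content was 58.7%. Neither window held the TATA box TATAAA (11.5% of all windows) or the AP-1 motif TGANTCA (7.71%). These counts belong to the starts shown. The other TSPAN8 start held no match (GC content 38%), and the other 3 starts of CD9 held 0, 3 and 0 (GC contents 55.3%, 73.3% and 45%), so the genes do not differ by this motif at every start.

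TSPAN8 was higher in all 9 arrays of the metastatic lines than in all 4 control arrays. Its signals were 9.95, 9.52 and 10.52 in M1, 9.82, 10.28 and 10.43 in M4, and 10.56, 10.54 and 10.41 in M5. They were 9.31 and 9.34 in controls with luciferase and 9.49 and 9.40 in controls without it. The smallest gap was between M1 replicate 2 at 9.52 and the first control without luciferase at 9.49, so the groups came close to touching at M1. In such bulk samples fewer cells with the transcript and less of it per cell cannot be told apart. Over the genome 0.602% of genes had all 9 metastatic arrays on one side of all 4 controls, but TSPAN8 was chosen from these signals, so nothing is read from its place among them.

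**Figure D1:**
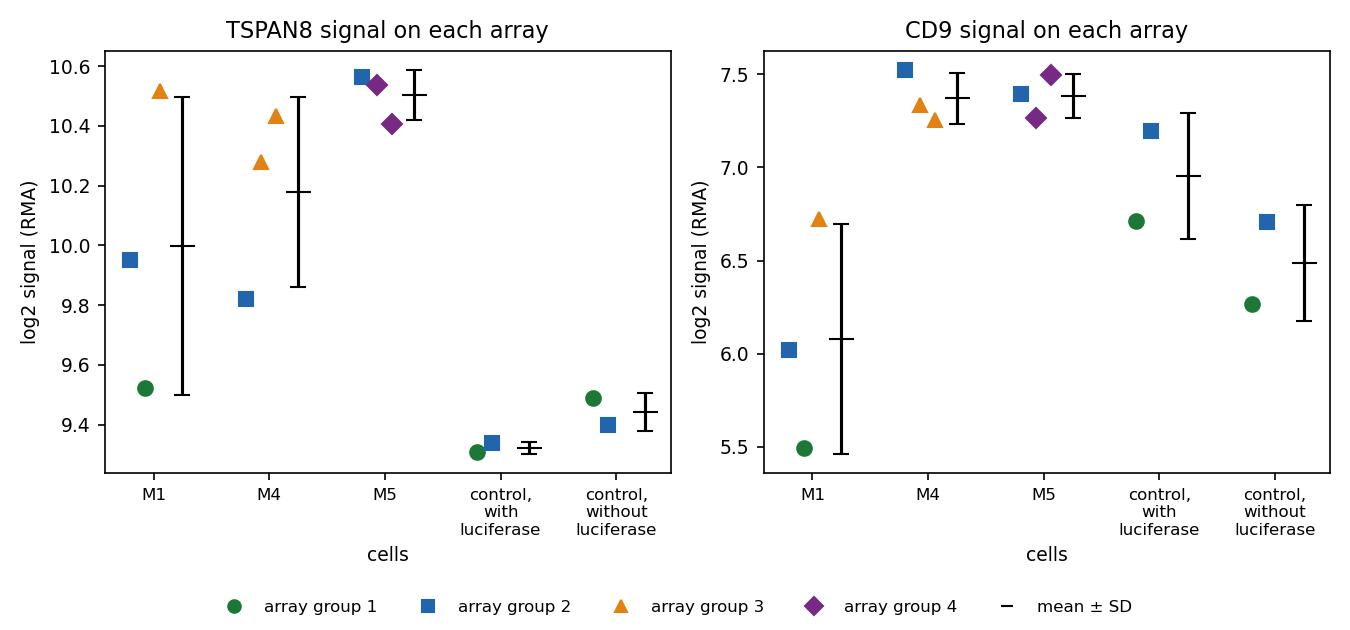
Log2 signals of TSPAN8 (left) and CD9 (right) on each array, for M1, M4, M5 and both kinds of control; the symbol gives the array group, and the bar gives the group mean with its SD. All 9 metastatic arrays of TSPAN8 lie above the 4 controls, the lowest of them M1 replicate 2 at 9.52, whereas for CD9 the M4 and M5 arrays lie above the controls and M1 replicates 1 and 2 lie below them.

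The order of the mean TSPAN8 signals was M5 at 10.50 ± 0.08, M4 at 10.18 ± 0.32 and M1 at 10.00 ± 0.50 (SD, n = 3 each), then controls without luciferase and controls with luciferase. M5 had a tight range and the other lines were scattered. The arrays of M5 and M4 overlapped, as did those of M4 and M1, so the order of these neighbours is within their spread. M5 and M1 overlapped too, as M1 replicate 3 at 10.52 was above M5 replicate 3 at 10.41. The mean over all controls was 9.38 ± 0.08 (SD, n = 4), with 9.32 ± 0.02 in controls with luciferase and 9.44 ± 0.06 in controls without it (n = 2 each). The difference between the kinds of control was 0.12, both arrays with luciferase lying below both without it. That was smaller than the differences of the line means from control, but close to the M1 difference inside array group 1 (0.13).

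Against the mean of the controls, TSPAN8 was 0.61 ± 0.20 higher on the log2 scale in M1 (SE, 1.53-fold), 0.79 ± 0.20 higher in M4 (1.73-fold) and 1.12 ± 0.20 higher in M5 (2.17-fold). With the array groups as a block the differences were 0.38 ± 0.11 in M1, 0.31 ± 0.13 in M4 and 1.11 ± 0.16 in M5. The difference of M5 was nearly the same in both fits, and that of M4 was clearly smaller with the block. Without M1 replicate 3 the M1 difference was 0.35, and without M1 replicate 2 it was 0.85.

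Inside array group 2, the only one with controls and all 3 lines, M1, M4 and M5 had 9.95, 9.82 and 10.56, against 9.34 and 9.40 in the controls. The M5 array was again the highest of the lines, and M4 was 0.13 below M1. Inside array group 1, M1 had 9.52, against 9.31 and 9.49 in the controls, a difference of 0.13 from their mean. Inside array group 3, with no control, M4 had 10.28 and 10.43, against 10.52 in M1. The order of M1 and M4 was thus reversed inside both array groups that held both lines, compared with the order of their means.

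CD9, a tetraspanin of adhesion and membrane fusion and a vesicle marker, differed between the lines. Its signals were 6.02, 5.49 and 6.72 in M1, 7.52, 7.34 and 7.25 in M4, and 7.39, 7.26 and 7.50 in M5. They were 6.71 and 7.20 in controls with luciferase and 6.27 and 6.71 in controls without it. All 6 arrays of M4 and M5 lay above all 4 controls and above all 3 arrays of M1, while M1 overlapped the controls at replicate 3 only.

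CD9 averaged 7.39 ± 0.12 in M5, 7.37 ± 0.14 in M4 and 6.08 ± 0.62 in M1 (SD, n = 3 each), against 6.72 ± 0.38 in the controls (n = 4). It rose in M5 relative to M1 by 1.31 ± 0.25 on the log2 scale (SE, 2.48-fold, limma adjusted p = 0.0264 over all genes), and by 1.20 ± 0.24 with the array groups as a block (adjusted p = 0.0357). The call did not hold without M1 replicate 1 (adjusted p = 0.0948), M1 replicate 2 (0.0832), M5 replicate 2 (0.0897) or M5 replicate 3 (0.134). M4 was above M1 by a similar 1.29 ± 0.25, which did not pass the test (limma adjusted p = 0.284, and 0.0595 with the block). Without M1 replicate 3 the M4 difference was 1.62 (limma adjusted p = 0.0106, with 0.0585% of genes called).

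Against the controls no CD9 difference passed the limma test, without a block or with the array groups used here. It was -0.64 ± 0.23 in M1, 0.65 ± 0.23 in M4 (adjusted p = 0.568) and 0.66 ± 0.23 in M5 (adjusted p = 0.166). With the block these were -0.82 ± 0.16 (limma adjusted p = 0.0755), then 0.21 for M4 and 0.38 for M5. With the planned array groups, from standardised control signals, which place M5 replicate 1 with array group 1, the M5 difference was 0.97 and passed (limma adjusted p = 0.0297). Inside array group 2, CD9 had 6.02 in M1, 7.52 in M4 and 7.39 in M5, against 7.20 and 6.71 in the controls, so M1 lay below the controls and the other lines above them there too. Inside array group 1, M1 had 5.49, against 6.71 and 6.27 in the controls. Controls with luciferase were above controls without it by 0.47.

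CD63, a tetraspanin of late endosomes and of vesicles, had its highest signals on arrays that share no array group with a control. Its signals were 11.35, 11.43 and 11.77 in M1, 11.39, 11.57 and 11.67 in M4, and 11.36, 11.79 and 11.76 in M5. They were 11.44 and 11.49 in controls with luciferase and 11.15 and 11.28 in controls without it. The high arrays were those of array groups 3 and 4, which hold no control. The M5 difference was 0.30 ± 0.14 (limma adjusted p = 0.271), and it was -0.003 with the block.

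CD81, a vesicle marker, did not differ between lines and controls beyond its spread. Its means were 9.16 ± 0.24 in M1, 9.10 ± 0.18 in M4 and 9.18 ± 0.05 in M5 (SD, n = 3 each), against 9.21 ± 0.20 in the controls (n = 4). The differences from control were -0.05, -0.11 and -0.04 in M1, M4 and M5. The array groups accounted for 90.5% of its sum of squares over the arrays, and the 5 cell groups for 7.09%. Of these vesicle markers, CD9 was thus highest in M4 and M5, CD63 highest on the arrays of array groups 3 and 4, and CD81 highest on those of array group 2.

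CD151, which stabilises laminin-receptor integrins at the membrane, had signals of 9.39, 9.33 and 9.21 in M1, 9.51, 9.34 and 9.22 in M4, and 9.34, 9.07 and 9.30 in M5. They were 9.38 and 9.50 in controls with luciferase and 9.48 and 9.34 in controls without it. The M5 arrays lay below all controls, the nearest pair of arrays both at 9.34, and the difference of -0.19 ± 0.11 did not pass the test (limma adjusted p = 0.387). CD82, the metastasis suppressor, had differences of 0.12 (M1), -0.05 (M4) and 0.13 (M5), each within an SE of 0.15. Its probe set is of a class (x_at) that can also bind other transcripts.

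**Figure D2:**
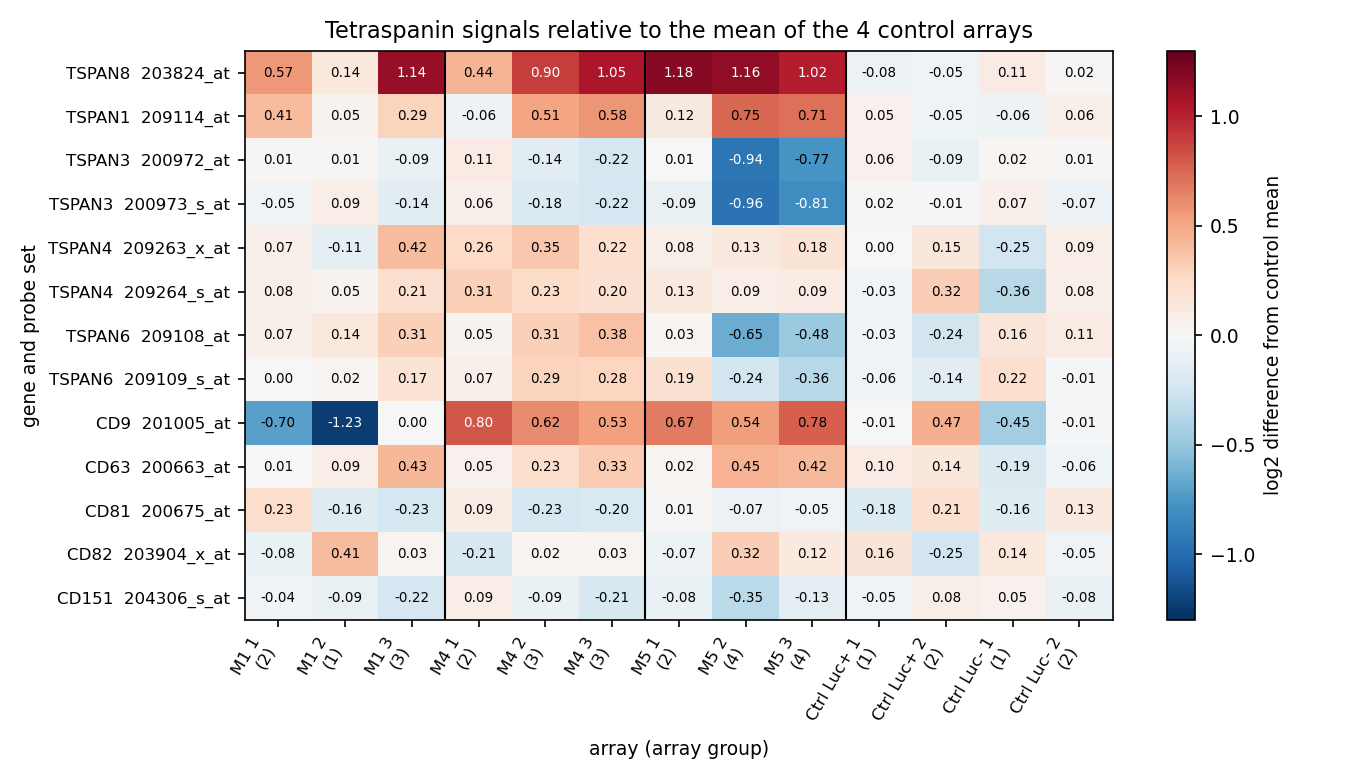
Log2 signal of each of the 13 probe sets of the 10 genes minus its mean over the 4 control arrays, by array, with the array group in brackets below each array; Ctrl Luc+ and Ctrl Luc- are controls with and without luciferase. TSPAN8 is above the control mean on all 9 metastatic arrays, CD9 is below it on M1 replicates 1 and 2 and above it on all M4 and M5 arrays, and both TSPAN3 probe sets are lowest on M5 replicates 2 and 3.

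TSPAN1 was a dim gene here, above the array median on 4 of 13 arrays. Its signals were 5.60, 5.24 and 5.48 in M1, 5.13, 5.70 and 5.77 in M4, and 5.31, 5.95 and 5.91 in M5. They were 5.25 and 5.14 in controls with luciferase and 5.13 and 5.26 in controls without it. The M5 arrays lay above all controls, 2 of them clearly so, and the M5 difference of 0.53 ± 0.18 did not pass the test (limma adjusted p = 0.159). With the block it was 0.09.

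TSPAN3, a broadly expressed tetraspanin, was low on only 2 arrays, M5 replicates 2 and 3. M5 had 10.01, 9.06 and 9.23, against 9.78 to 10.11 on the other 10 arrays. The second probe set of the gene gave 9.33, 8.46 and 8.61 in M5, against 9.20 to 9.51 elsewhere, so both probe sets showed the same 2 arrays low. The M5 difference was -0.57 ± 0.18 (limma adjusted p = 0.135) and 0.02 with the block, and the array groups accounted for 96.4% of the sum of squares. These 2 arrays make up array group 4, so within M5 the array group and the low signals cannot be told apart. RCN2, the only measured neighbour of TSPAN3 on chromosome 15 that was called, had an M5 difference of -0.56 in the fit without a block (limma adjusted p = 0.0318). The other neighbours, SCAPER, PSTPIP1, PEAK1, LINC00597 and TBC1D2B, were not called and differed by -0.006, 0.04, 0.21, 0.06 and 0.20 in M5. Their mean signals were 3.4 to 5.7, against 9.20 for RCN2. A shared change of these neighbours was not tested.

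TSPAN6, reported in human cells as an inhibitor of antiviral signalling, was also lowest on these 2 arrays. It had 8.87, 8.43 and 8.31 in M5, against 8.53 to 8.96 on the other arrays. Its second probe set gave 7.75, 7.07 and 7.24 in M5, against 7.48 to 8.10 elsewhere. The M5 differences were -0.14 by the brighter probe set and -0.37 by the other, and with the block the first was 0.25 ± 0.11 (limma adjusted p = 0.328). TSPAN4 differed most among the lines in M4, by 0.25 ± 0.12 (limma adjusted p = 0.758, and 0.13 with the block), less than controls with luciferase differed from controls without it (0.29). Its other probe set gave 0.28 in M4, and the probe sets were 9.20, 9.12 and 9.09 (s_at class) and 8.88, 8.97 and 8.84 (x_at class) in M4. TSPAN4 (chr11:842852-867111) and CD151 (chr11:832952-838831) are near neighbours on chromosome 11 in GRCh38.p14, and in M4 they differed from control by 0.25 and -0.07.

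**Figure D3:**
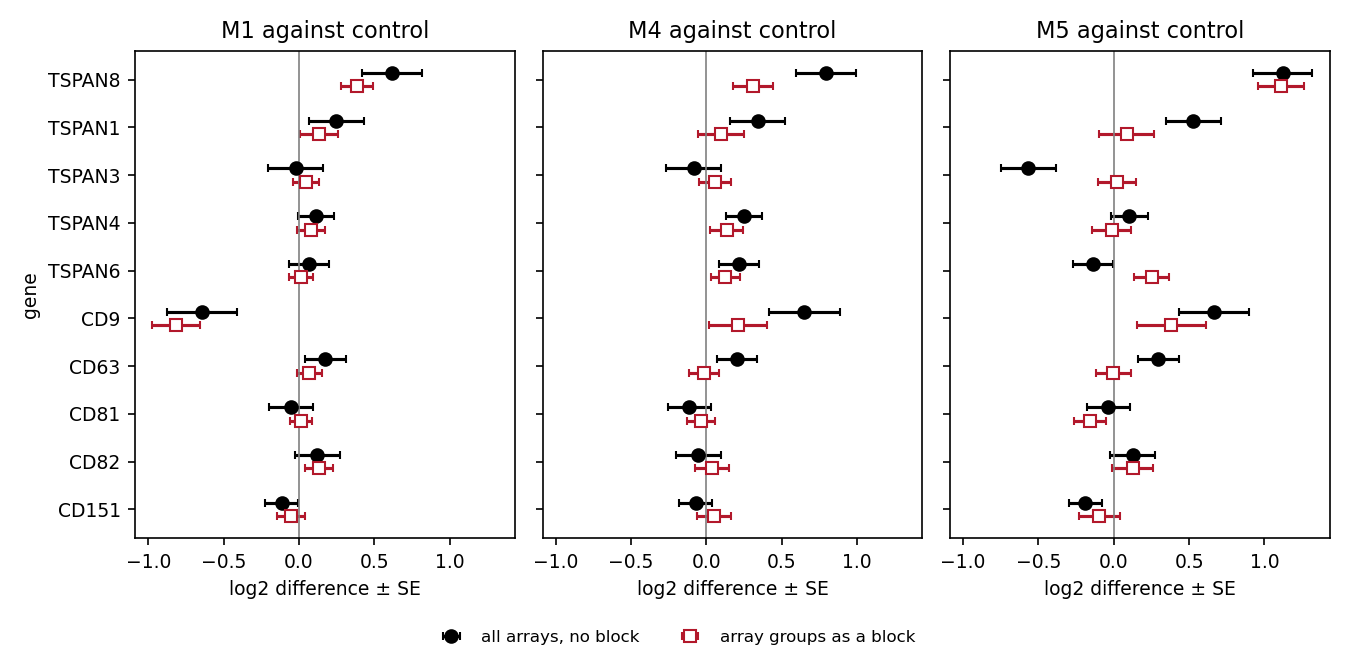
Log2 difference from the controls (± SE) of each of the 10 genes in M1, M4 and M5, from the fit of all 13 arrays without a block (filled circles) and with the 4 array groups as a block (open squares). TSPAN8 lies above 0 in all panels and both fits, and the M5 differences of TSPAN3, TSPAN1 and CD63 are near 0 with the block.

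Counted together, none of the 9 tetraspanins other than TSPAN8 passed the limma test against control in M1 (0 of 9, with 0.0251% of all 11963 genes called), M4 (0 of 9, 0.092% called), M5 (0 of 9, 2.37% called) or the mean of the lines (0 of 9, 0.0251% called). At an unadjusted p under 0.05 there were 1, 1, 4 and 1 of the 9, with 3.08%, 6.91%, 18% and 8.16% of all genes. With the array groups used here as a block the calls were again 0 of 9 in each, with 0.234%, 0.15%, 1.98% and 0.527% of all genes called in M1, M4, M5 and the mean of the lines, and 1, 0, 0 and 0 members at an unadjusted p under 0.05 (9.51%, 7.01%, 15.3% and 9.69% of all genes). With the array groups from standardised control signals, 1 of 9 was called in M5 (CD9), with 7.67% of all genes called. Between the lines, CD9 in M5 against M1 was the only call, in both fits (1 of 9, with 1.23% of all genes called without and 1.61% with the block). There was none in M4 against M1 (0.0251% and 0.117% of genes) or in M5 against M4 (2.16% and 1.85%), where 1 and 2 members had an unadjusted p under 0.05 without the block (2.83% and 15.1% of genes), and 1 and 0 with it (4.84% and 14.3%). Without M5 replicate 1, the count in M5 against control was 3: TSPAN3 (-0.86, limma adjusted p = 3.4e-04), TSPAN1 (0.73, 0.00777) and CD63 (0.43, 0.0261). That fit, in which M5 is array group 4 alone, called 25.6% of all genes. In M5 against M1 the count was then 3 (CD9, TSPAN3 and TSPAN6, with 19.8% of genes called) and in M5 against M4 it was 2 (TSPAN3 and TSPAN6, with 20.4%).

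Of the 9 genes other than TSPAN8, the arrays of a line did not overlap the controls for 0 in M1 (5.94% of all genes), 1 in M4 (CD9; 11.4%) and 3 in M5 (CD9 and TSPAN1 above, CD151 below; 12.2%). None of the 9 had all metastatic arrays on one side of the controls. The median difference over the 9 genes was 0.07 for M1, 0.20 for M4 and 0.10 for M5, against -0.008, -0.001 and 0.03 over all genes. With the array groups as a block these medians were 0.05, 0.06 and 0.02, against -0.02, -0.01 and -0.02 over all genes.

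The pattern of TSPAN8 over the 13 arrays was set against 198 genes. These had an SD of at least 0.5 and a highest array above the median of all gene means. TSPAN8 was chosen from its signals and these genes for varying, so high r can follow from the choices alone. All arrays share their array groups, so each Pearson r is given also after each array group was centred on its mean, and both are descriptions. The highest r were those of S100A4, a calcium-binding protein linked to cell motility (0.87, centred 0.78), SORBS2, an adaptor of the actin cytoskeleton (0.87, centred 0.72), SERPIND1, a thrombin inhibitor (0.84, centred 0.84), ALDH1A1, a retinal dehydrogenase (0.84, centred 0.63), and SMAD3, a transducer of TGF-beta signals (0.82, centred 0.41). Their Spearman coefficients were 0.85, 0.95, 0.86, 0.80 and 0.74 in that order. S100A4 had 10.70 ± 0.63 in M1, 10.84 ± 0.57 in M4 and 11.06 ± 0.34 in M5 (SD, n = 3 each), against 9.82 ± 0.14 in the controls (n = 4). ALDH1A1 also differed between the kinds of control, with means of 9.62 without and 7.26 with luciferase, and M1 at 9.32 lay between them. After centring, the highest were CHRNA9 (0.91), CD36 (0.90), JAG1 (0.86) and PPEF1 (0.86). SERPIND1 was among the top 5 by both measures and S100A4 was 12th after centring.

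Among the other tetraspanins, TSPAN1 (0.75) and CD63 (0.68) had the highest r with TSPAN8, and after centring these were 0.25 and -0.05. CD9 had 0.48, and -0.008 after centring. The measured genes on either side of TSPAN8 on chromosome 12 (KCNMB4, PTPRB, PTPRR, LGR5, ZFC3H1 and TMEM19) were not called in any line, and the M5 differences of the nearest pair, PTPRR and LGR5, were -0.09 and 0.14, against 1.12 for TSPAN8. Those of the nearest pair to CD9, VWF and PLEKHG6, were 0.01 and 0.06. All of these neighbours but ZFC3H1 had mean signals of 3.6 to 4.6, below every array median. Little can therefore be read from their small differences. ZFC3H1, with a mean signal of 7.73, differed from control by -0.02, 0.17 and 0.28 in M1, M4 and M5.

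Of 23 further tetraspanins listed, 16 were measured. In M5 against control 1 rose and 1 fell by the limma test, with 2.37% of all genes called, and in M1 and M4 none did (0.0251% and 0.092% of genes). With the block none did in any line. At an unadjusted p under 0.05 there were 1, 3 and 4 in M1, M4 and M5 without the block (3.08%, 6.91% and 18% of all genes) and 4, 2 and 2 with it (9.51%, 7.01% and 15.3%). The median difference over the 16 was 0.003 for M1, -0.02 for M4 and 0.05 for M5. With the block it was 0.04, 0.05 and -0.10, so the signs of M4 and M5 turned. TSPAN13, another member of the family, had 7.73, 7.18 and 7.04 in M5, 8.07, 8.11 and 8.48 in M1, and 8.42, 8.62 and 8.66 in M4. The controls had 8.10 and 7.98 with luciferase and 7.98 and 8.23 without it, so each M5 array was below every other array. It fell in M5 against control by 0.76 ± 0.16 on the log2 scale (limma adjusted p = 0.0306), and was -0.37 with the block (adjusted p = 0.215). Against M4 it fell by 1.25 (adjusted p = 0.00305), and was -0.65 with the block (adjusted p = 0.0508).

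TSPAN5, which guides the protease ADAM10 to the cell surface, had 5.13, 5.87 and 5.69 in M5. The controls had 5.15 and 5.07 with luciferase and 4.58 and 4.59 without it. It rose in M5 against control by 0.72 ± 0.16 (limma adjusted p = 0.0363), and was 0.32 with the block (adjusted p = 0.381). The M5 array that shares array group 2 with controls lay inside the range of the controls. Against the controls with luciferase alone the difference was 0.46 (limma adjusted p = 0.369). For both genes the call against control was also lost when any 1 control array, M4 replicate 2 or 3, or M5 replicate 2 or 3 was left out, with limma adjusted p up to 0.160 for TSPAN13 and 0.172 for TSPAN5.

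**Figure D4:**
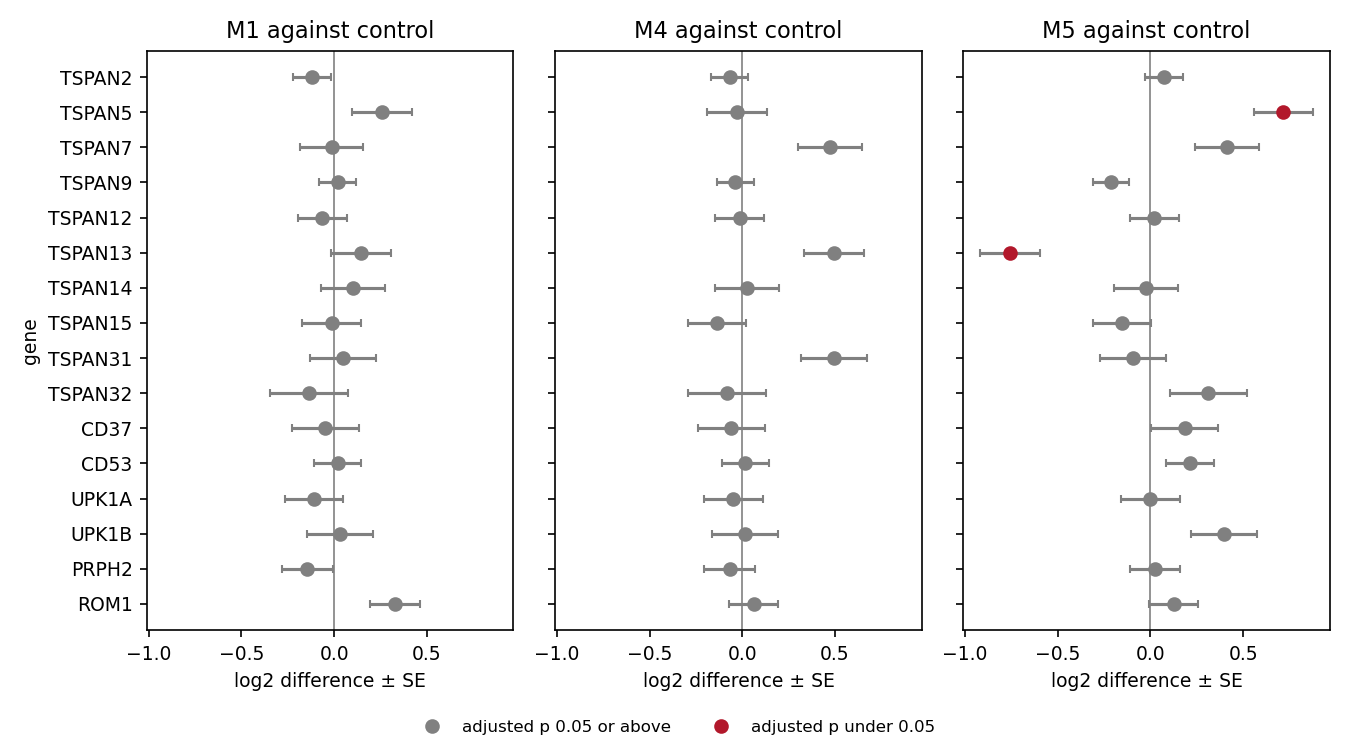
Log2 difference from the controls (± SE) of the 16 further tetraspanins in M1, M4 and M5, from the fit without a block, with genes of adjusted p under 0.05 in red. TSPAN5 (above 0) and TSPAN13 (below 0) in M5 are the only red points.

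Of 25 listed partners of tetraspanins at the membrane, 23 were measured, and 2 fell and none rose in M5 against control by the limma test. Over all genes 2.37% were called there, 63 up and 221 down. With the block 1 fell and none rose (1.98% of all genes). At an unadjusted p under 0.05 there were 9 of 23 in M5 (18% of all genes). None passed in M1 or M4, where 0 and 1 had an unadjusted p under 0.05 (3.08% and 6.91%). CLDN1, a tight junction claudin, had 6.87, 7.54 and 7.09 in M5, 8.05, 8.25 and 8.73 in M1, and 8.20, 9.00 and 8.64 in M4. The controls had 8.44 and 8.60 with luciferase and 8.46 and 8.77 without it, so the M5 arrays lay below all others. CLDN1 fell in M5 against control by 1.40 ± 0.21 (2.63-fold, limma adjusted p = 0.00723), and by 1.73 ± 0.20 with the block (adjusted p = 0.00261). The call held when each array was left out in turn (limma adjusted p of 0.00249 to 0.0473), and inside array group 2 the M5 array was at 6.87, against 8.60 and 8.77 in the controls. In the mean of the lines CLDN1 passed with the block only (-0.84, limma adjusted p = 0.0195).

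ITGA2, the collagen-binding integrin chain, had 5.82, 5.46 and 5.50 in M5. The controls had 5.94 and 5.97 with luciferase and 6.46 and 6.35 without it. It fell in M5 against control by 0.58 ± 0.11 (limma adjusted p = 0.0203), and was -0.38 with the block (adjusted p = 0.209). The call was lost when any 1 control array or either of M5 replicates 2 and 3 was left out (limma adjusted p up to 0.109). ITGA6 and ITGB4, chains of the laminin receptor found with TSPAN8 in rat carcinoma cells, differed by -0.19 (adjusted p = 0.322) and 0.25 (adjusted p = 0.549) in M5. With the block these were -0.27 and -0.25, so the sign of ITGB4 turned.

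Between the lines, CLDN1 fell in M5 against M4 by 1.44 (limma adjusted p = 0.00633) and against M1 by 1.18 (adjusted p = 0.0300). The call against M1 was lost without M1 replicate 2 or 3, M4 replicate 3 or M5 replicate 3 (limma adjusted p up to 0.140). ITGA3, a laminin-receptor chain that binds CD151, had 6.61, 6.73 and 6.60 in M5, against 5.97, 6.15 and 6.19 in M4. It rose in M5 against M4 by 0.54 (limma adjusted p = 0.0433), and by 0.70 with the block (adjusted p = 0.0420). Its call without the block was lost when any 1 control array, M1 replicate 2, any M4 array, or M5 replicate 2 or 3 was left out (limma adjusted p up to 0.148). CD44, the hyaluronan receptor, passed in that comparison with the block only (0.82, limma adjusted p = 0.0488, against 0.20 without it). It had 10.46, 9.78 and 10.03 in M5, against 9.62, 10.19 and 9.89 in M4. Only M5 replicate 1, on which the M5 value with the block rests, lay above all M4 arrays. The 22 measured genes of a list of 24 for the formation of extracellular vesicles held no call in M1, M4, M5 or the mean of the lines in either fit. At an unadjusted p under 0.05 there were 0, 2, 2 and 4 of them by limma (3.08%, 6.91%, 18% and 8.16% of all genes), and 1, 2, 7 and 3 with the block (9.51%, 7.01%, 15.3% and 9.69%). Their median differences were -0.01 in M1, -0.04 in M4 and -0.03 in M5, against -0.008, -0.001 and 0.03 over all genes.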

How the data were processed

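Total RNA of 13 samples was hybridised to Affymetrix human arrays. Per the submitters' processing notes the authors made the deposited log2 signals, 1 per probe set, by RMA. Its version and further steps are not given in these sources, and the values carry no genome build. The arrays' number limits precision. Probe sets were named from GEO's platform annotation (19064 name 1 gene, 1043 several, 2108 none), and positions come from RefSeq GRCh38.p14. One probe set was kept per gene (highest mean). Group means (5) were fitted over all arrays with limma 3.58.1 (R 4.3.3), the control being the mean of both kinds, with Benjamini-Hochberg adjustment over 11963 genes and a threshold of 0.05. The fits were tested on simulated data with no differences between array groups, and only for M5 against control. How they behave with such differences was not tested. Array groups came from Ward clustering of the control probe sets on the log2 scale, chosen after seeing the data. The members and lists were chosen with earlier results of these data known. The text names all members, called genes of each list (at most 4 a direction) and the 5 genes most like TSPAN8. It also names 3 neighbours a side of TSPAN8 and the nearest pair of CD9. ITGA6 and ITGB4, CD44, RCN2, the other neighbours of TSPAN3 and genes most alike after centring were added after their values were seen. Replicate numbers did not pair arrays.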

Additional observations from a re-analysis of the deposited data

Results flagged for a closer look

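Each of the following differed between lines by the test of the difference itself, in the limma fit without a block. CD9 was 1.31 higher in M5 than in M1 on the log2 scale (adjusted p = 0.0264, and 0.0357 with the array groups as a block). CLDN1 had a log2 difference of -1.18 between M5 and M1 (adjusted p = 0.0300, and 0.0184 with the block) and had a difference of -1.44 between M5 and M4 (adjusted p = 0.00633, and 0.0149). ITGA3 was 0.54 higher in M5 than in M4 (adjusted p = 0.0433, and 0.0420). These passed in both fits, but with the block the M5 value rests on M5 replicate 1. M5 replicates 2 and 3 do not enter that difference, so the block fit is no check over the M5 arrays. Without the block, leaving out 1 array gave limma adjusted p up to 0.134 for CD9, 0.140 for CLDN1 against M1 and 0.148 for ITGA3, and up to 0.0423 for CLDN1 against M4.

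TSPAN13 differed by -0.90 between M5 and M1 (limma adjusted p = 0.0272, and 0.187 with the block) and by -1.25 between M5 and M4 (adjusted p = 0.00305, and 0.0508). ITGA2 differed by -0.59 between M5 and M4 (limma adjusted p = 0.0258, and 0.195) and TSPAN5 by 0.75 (adjusted p = 0.0429, and 0.395). These passed only without the block, in which the M5 value rests on M5 replicate 1. Leaving out 1 array gave limma adjusted p up to 0.141 for TSPAN13 against M1, 0.0235 for TSPAN13 against M4, 0.141 for ITGA2 and 0.197 for TSPAN5. Of 16 sets of 4 or more arrays checked for a single array far from the others, none had one. A line has only 3 arrays, too few for this check. It therefore says nothing about an array that stands apart within M1, M4 or M5.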

How the results depend on the processing

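TSPAN8 kept its sign against control in M1, M4 and M5 under every alternative run. Its M4 difference was 0.31 with the array groups as a block in both clusterings, the planned one on standardised signals and the one used here. Leaving out 1 array gave 0.35 to 0.85 in M1, 0.67 to 0.97 in M4 and 1.09 to 1.17 in M5. Between M4 and M1 its sign turned to -0.07 with the block and -0.06 without M1 replicate 2. Members called, leaving out 1 array, ranged from 0 to 3 in M5 against control, 0 to 1 in M4 against M1, 0 to 3 in M5 against M1 and 0 to 2 in M5 against M4, the highest without M5 replicate 1 or, in M4 against M1, without M1 replicate 3. In M5 against control the standardised array groups called 1 (CD9, 0.97, limma adjusted p = 0.0297). The single call in M5 against M1 became 0 with only the arrays compared, at an adjusted p under 0.01, and without M5 replicates 2 and 3, and CD9 then had an adjusted p of 0.197 in the last. No pairing was found: same-numbered arrays had correlations of -0.512 to 0.526 over 23 pairs. With the replicate number as a block, the calls were 1 (CD9 in M5 against M1, limma adjusted p = 0.0409) and 0 in every other comparison, and TSPAN8 differed by 0.50, 0.68 and 1.01 in M1, M4 and M5. Over all results and alternatives, 706 values kept their side of the threshold or their size, 128 fell short of the threshold or count, 10 passed it and 8 moved. The causes were not tested.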
